A study of Mus musculus with 8 samples.

Results

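The 7 genes described here encode the 4 mouse Argonautes (Ago1, Ago2, Ago3 and Ago4) and the 3 TNRC6 proteins (Tnrc6a, Tnrc6b and Tnrc6c). They were chosen by name, as the entries of the deposited tables whose Ensembl identifiers carry these symbols in GENCODE release M21. They are 7 of 55487 genes in the count table, and all 7 passed the filter on low counts. RNA-seq was performed on 8 subcutaneous tumors of Lewis Lung Carcinoma (LLC), a mouse lung cancer cell line, isolated from syngeneic C57BL/6J mice at day 12. In 4 tumors the implanted cells were wild-type and in 4 they were labelled Ago2 knock-out (ΔAgo2). The study profiled them to learn how Ago2 in cancer cells acts on the tumor. Its methods state that the mice were females aged 6 to 8 weeks at purchase, and that a lentivector carrying Cas9 and a guide to Ago2 was used, after which single cells were grown into clones. The ΔAgo2 line is thus 1 clone, and the host cells of every tumor keep Ago2.

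Argonautes hold microRNAs and are led by them to partly complementary messenger RNAs. All 4 can silence, and Ago2 is the one known for cutting fully matched targets. TNRC6 proteins, also called GW182, bind Argonautes through repeated glycine-tryptophan motifs and bring in the PAN2-PAN3 and CCR4-NOT deadenylases, after which the transcript is translated less, decapped and degraded. Silencing by this route therefore needs both families.

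The mixture of TNRC6 transcripts kept the groups apart, while no single level did. The shares of Tnrc6a and Tnrc6c were singled out after their values were seen and have no test. Tnrc6a made up 46.7% to 48.3% of the TNRC6 total in wild-type tumors and 60.0% to 63.6% in ΔAgo2 tumors. Tnrc6c made up 36.7% to 43.3% in wild-type tumors and 20.02% to 27.4% in ΔAgo2 tumors. The Argonaute mixture did not separate the groups, and Ago2 held most of it in all 8 tumors. Of the 7 levels, Tnrc6a passed the test, with a log2 fold change of 1.20. It stayed above 0 in all of 21 other settings and passed in 7 of them.

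Tnrc6a (ENSMUSG00000052707.8) lies on chromosome 7, positions 123123885 to 123195296 of GRCm38 (mm10), plus strand, and Tnrc6c (ENSMUSG00000025571.13) on chromosome 11, positions 117654289 to 117763439, plus strand. They had the highest and the lowest log2 fold change of the 7, so the 250 bases before the RefSeq start of each are shown, at chr7:123123635-123123884 and chr11:117654039-117654288 (GRCm38.p6, both plus strand), with each CG in capitals.
Tnrc6a: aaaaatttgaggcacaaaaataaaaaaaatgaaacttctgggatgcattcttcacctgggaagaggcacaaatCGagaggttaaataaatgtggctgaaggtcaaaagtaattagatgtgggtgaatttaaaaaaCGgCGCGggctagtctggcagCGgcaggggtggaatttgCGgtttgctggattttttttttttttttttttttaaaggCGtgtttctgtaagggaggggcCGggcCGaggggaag
Tnrc6c: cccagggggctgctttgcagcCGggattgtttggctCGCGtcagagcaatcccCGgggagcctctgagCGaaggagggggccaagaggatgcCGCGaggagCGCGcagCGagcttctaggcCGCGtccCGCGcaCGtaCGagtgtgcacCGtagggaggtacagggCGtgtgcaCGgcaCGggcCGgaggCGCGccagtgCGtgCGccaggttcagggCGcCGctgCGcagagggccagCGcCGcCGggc
The motif searched was CG, which reads the same on both strands. The Tnrc6a window holds 9 CG at 42.4% GC, and 40.3% of 32851 RefSeq promoter windows of this length hold as many. The Tnrc6c window holds 31 CG at 72.4% GC, a number reached by 5.19% of windows. Windows were matched for 6 of the 7 genes. Ago4 had the most, with 46 CG, which 0.323% of windows reach, and the windows of Ago1, Ago3 and Tnrc6b held from 8 to 28.

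The genes differ in place and size. Ago2 (ENSMUSG00000036698.11) is on the minus strand of chromosome 15, at 73095844 to 73184935, and its exons cover 14031 bases. Its main transcript has 19 exons, with 2580 coding and 11220 untranslated bases. Tnrc6b (ENSMUSG00000047888.10) is on the same chromosome, plus strand, at 80711313 to 80941085, with 23677 exonic bases. Ago3 (ENSMUSG00000028842.15, 126331704 to 126429556), Ago1 (ENSMUSG00000041530.16, 126435012 to 126468583) and Ago4 (ENSMUSG00000042500.11, 126489541 to 126533472) lie side by side on the minus strand of chromosome 4, with 16571, 8120 and 6947 exonic bases. Tnrc6a and Tnrc6c are nearly equal in exonic length, at 12706 and 12843 bases, and differ in the GC content of their exons, at 47.4% and 52.7%.

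Library totals ran from 7903288 counts in wild-type tumor 4 to 268564145 in ΔAgo2 tumor 4, so that 3 counts, the limit a count of 0 allows, stood for 0.38 to 0.0112 CPM (counts scaled to the library total). None of the 7 genes was near that limit except Ago4 in wild-type tumor 4, with 19 counts, or 2.72 CPM with an exact 95% Poisson interval of 1.64 to 4.25, which covers counting error only. CPM here is scaled by the trimmed mean of M-values (TMM) and serves to compare 1 gene between tumors. TPM, the authors' value per exonic length, serves to compare genes with each other. That length covers the exons of all annotated transcripts of a gene. It exceeds the longest coding transcript unevenly, with 12706 against 8183 bases for Tnrc6a and 14031 against 13800 for Ago2. Orders and ratios between genes in TPM therefore depend on it. In bulk tumors, fewer cells of a type and less RNA per cell cannot be told apart. The labels call the samples biological replicates, and p-values measure the spread between these 4 and 4 tumors.

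Ago2, the targeted gene, stood at 26.4, 39.6, 31.1 and 19.9 TPM in wild-type tumors 1 to 4. In ΔAgo2 tumors 1 to 4 it stood at 18.5, 92.6, 48.3 and 65.4 TPM. ΔAgo2 tumor 1 was the lowest of all 8, and the other 3 ΔAgo2 tumors were above every wild-type tumor. The log2 fold change in CPM was 0.64 ± 0.30 (SE), which did not pass the test (edgeR's quasi-likelihood test, Benjamini-Hochberg adjusted p = 0.205). The transcript was not lower in the tumors labelled ΔAgo2. Counts over the whole gene cannot show an edit of a few bases, so this level does not check the labels. For its ΔAgo2 LLC cells the paper cites a Western blot of Ago2 protein, and it names the clone chosen for engraftment. The name ΔAgo2 follows the labels throughout. Without ΔAgo2 tumor 1 the log2 fold change was 0.85 and passed (adjusted p = 0.0441), where 11.0% of all genes tested also passed. Without ΔAgo2 tumor 2 the value was 0.38 (adjusted p = 0.507), and with each library's length trend removed it was 0.18 (adjusted p = 0.569).

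Ago1, the neighbour of Ago3 and Ago4, stood at 18.2, 15.9, 16.9 and 7.79 TPM in wild-type tumors 1 to 4 and at 9.59, 30.5, 22.7 and 25.4 TPM in ΔAgo2 tumors 1 to 4. The low values were those of wild-type tumor 4 and ΔAgo2 tumor 1, and the groups overlapped. Its log2 fold change of 0.33 ± 0.24 (SE) did not pass (adjusted p = 0.388). It was 0.20 without wild-type tumor 4, 0.21 without ΔAgo2 tumor 2 and 0.09 with each library's length trend removed. Ago3 stood at 1.59, 2.42, 2.12 and 1.43 TPM in wild-type tumors 1 to 4 and at 1.26, 6.70, 3.09 and 4.11 TPM in ΔAgo2 tumors 1 to 4. Ago4 stood at 1.77, 1.00, 2.28 and 0.79 TPM in wild-type tumors 1 to 4 and at 1.37, 4.94, 2.66 and 3.99 TPM in ΔAgo2 tumors 1 to 4. For both, ΔAgo2 tumors 2 to 4 were above every wild-type tumor and ΔAgo2 tumor 1 was not. The log2 fold change of Ago3 was 0.69 ± 0.33 (SE, adjusted p = 0.201) and that of Ago4 was 0.87 ± 0.35 (SE, adjusted p = 0.153), so neither passed. For Ago3 the value was 0.36 without ΔAgo2 tumor 2 and -0.11 with each library's GC trend removed.

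Tnrc6a was the member that passed the test. In wild-type tumors 1 to 4 its CPM was 51.2, 61.7, 51.9 and 41.1, and in ΔAgo2 tumors 1 to 4 it was 60.0, 161.1, 118.4 and 134.1. ΔAgo2 tumor 1 lay just under the highest wild-type tumor, and the other 3 were all well above it. Its log2 fold change was 1.20 ± 0.29 (SE), and it passed in the same edgeR fit (adjusted p = 0.0475). This is 1 of 7 genes, where 3.49% of all 16061 genes tested passed and 1.36% passed as higher in ΔAgo2 tumors. The call is close to the threshold: leaving out any 1 library other than ΔAgo2 tumor 1 gave adjusted p-values from 0.0540 to 0.147, and removal of each library's GC trend gave 0.92 with an adjusted p of 0.0687.

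Tnrc6b, the member with the most exonic bases, had a CPM of 25.9, 37.9, 28.6 and 16.5 in wild-type tumors 1 to 4 and of 22.6, 99.7, 45.5 and 70.3 in ΔAgo2 tumors 1 to 4. ΔAgo2 tumor 1 was again within the wild-type range. Its log2 fold change of 1.12 was close to that of Tnrc6a, but its standard error was larger, at 0.41, and it did not pass (adjusted p = 0.124). Without ΔAgo2 tumor 2 the value was 0.74, and with each library's length trend removed it was 0.53. Tnrc6c had a CPM of 42.1, 48.0, 40.7 and 38.6 in wild-type tumors 1 to 4 and of 27.4, 54.3, 43.8 and 47.3 in ΔAgo2 tumors 1 to 4. ΔAgo2 tumor 1 was the lowest and ΔAgo2 tumor 2 the highest of all 8, and the group means of 42.3 and 43.2 CPM were close together. The log2 fold change of Tnrc6c was 0.03 ± 0.23 (SE, adjusted p = 0.948), and its sign turned under 5 of 21 other settings.

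**Figure D1:**
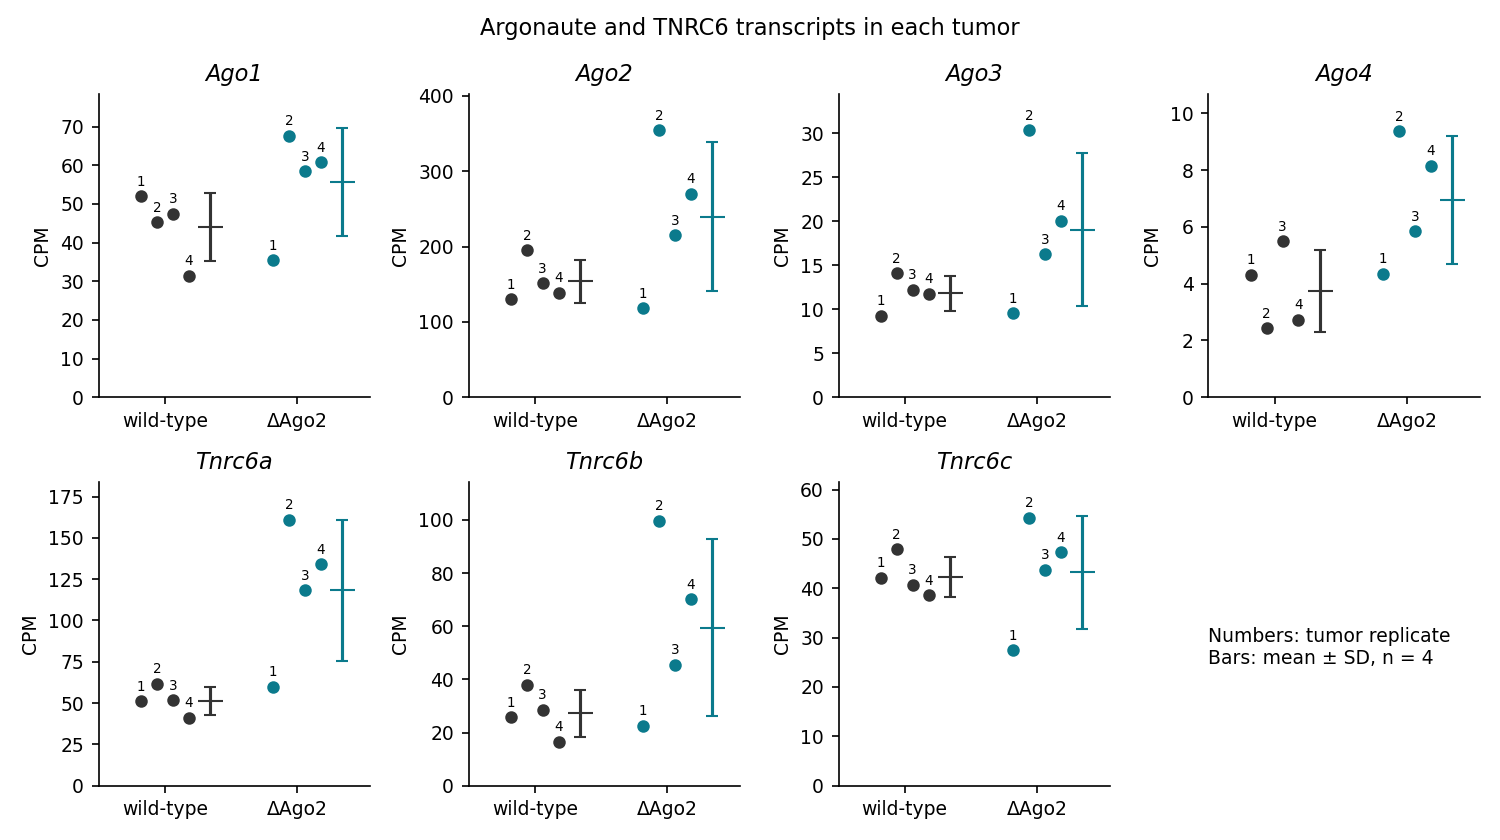
TMM-scaled CPM (y axis, from 0) of each of the 7 genes in the 4 wild-type and 4 ΔAgo2 tumors, with the tumor number beside each point and the mean ± SD of each group as a bar. ΔAgo2 tumor 1 lies within or below the wild-type range in all 7 panels, and ΔAgo2 tumor 2 is the highest point in all 7.

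All 7 log2 fold changes were above 0, with a median of 0.69, while the median over all genes tested was 0.04. At an unadjusted p under 0.05 by edgeR there were 3 of the 7 genes and 4281 of 16061. For no member did the groups keep apart in CPM, where 16.4% of all genes tested did. In 6 members (all but Tnrc6c) at least 3 ΔAgo2 tumors were above every wild-type tumor, a pattern held by 22.1% of all genes tested. By limma voom with sample quality weights 5 members passed, among 27.9% of all genes. Without ΔAgo2 tumor 1, 3 members passed (Ago2, Tnrc6a and Tnrc6b), among 11.0% of all genes.

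**Figure D2:**
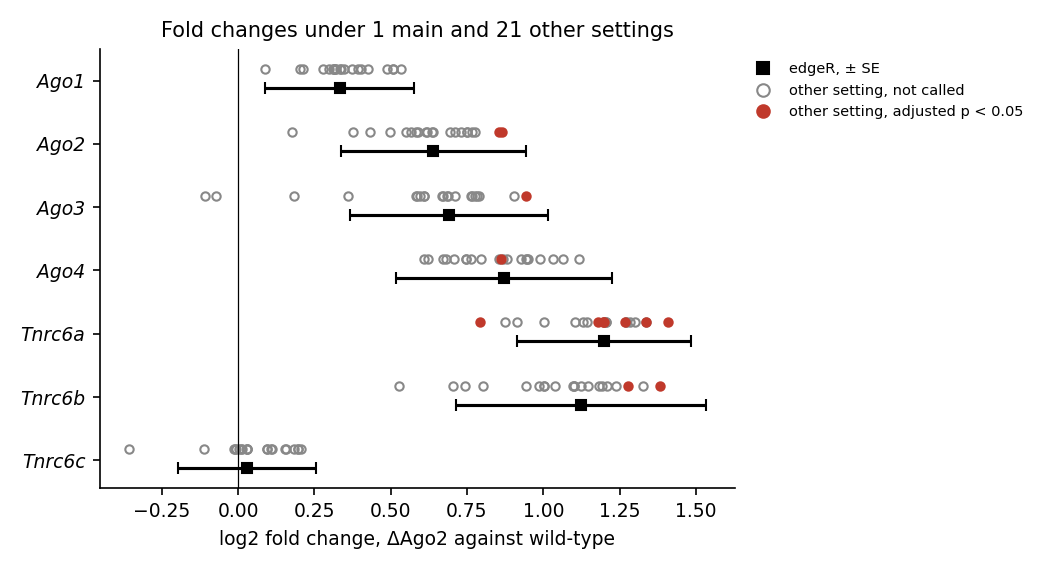
Log2 fold change of ΔAgo2 against wild-type tumors (x axis) for each gene, with the edgeR value ± SE as a square and 21 other settings as circles, filled where the adjusted p was under 0.05. Tnrc6a ranges from 0.79 to 1.41 and is filled in 7 settings, while Ago1 and Tnrc6c are filled in none.

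Genes with a large exonic length, and genes with low GC content, tended to be higher in ΔAgo2 tumors, and the exonic lengths of the 7 genes are large. The decile of genes with the largest exonic length holds Ago2, Ago3 and all 3 TNRC6 genes. It had a median log2 fold change of 0.33 against -0.01 in the decile with the smallest. Over deciles of GC content the median went from 0.74 at the lowest to -0.63 at the highest. The medians of the members' own GC deciles were 0.51 for Ago3, 0.21 for Ago4, Tnrc6a and Tnrc6b, 0.14 for Ago2, -0.02 for Ago1 and -0.14 for Tnrc6c. Each of the 7 genes was above the median of its GC decile. With the GC trend of each library removed, Ago3 turned to -0.11, and with the length trend removed Ago2 stood at 0.18 and Tnrc6c at -0.36.

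**Figure D3:**
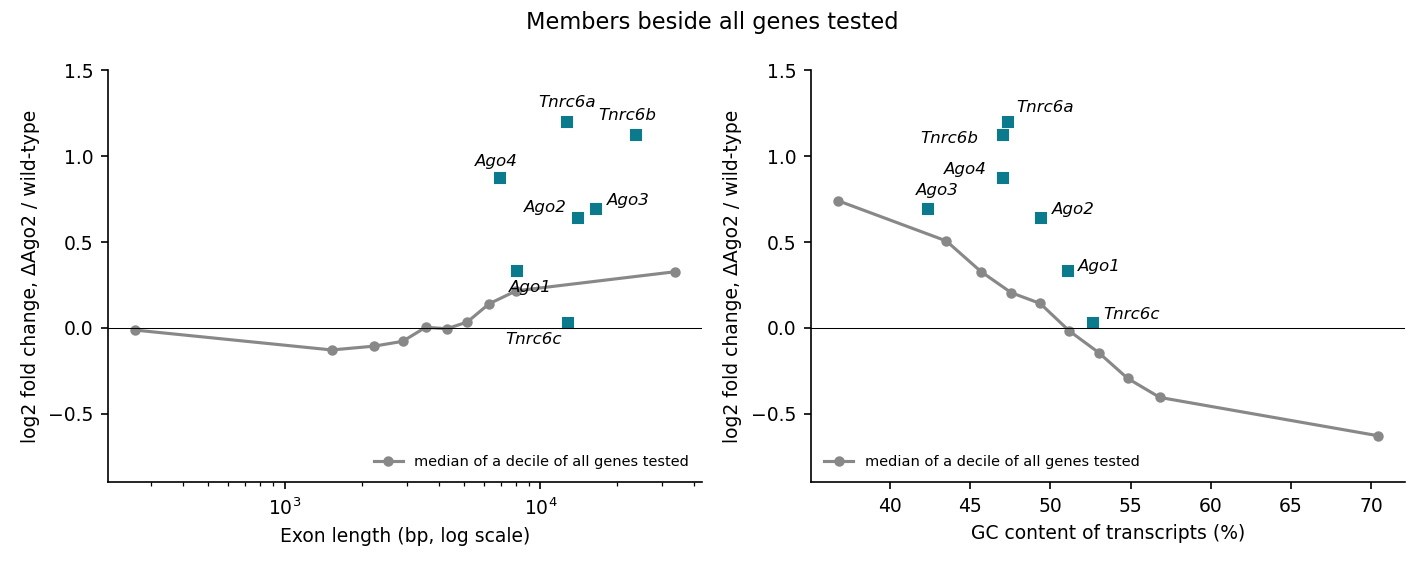
Log2 fold change (y axis) against exonic length on a log scale (left) and GC content of the exons (right), with the 7 genes as squares and the medians of deciles of all genes tested as grey circles at the middle of each decile. All 7 squares lie above the grey line on GC content, and Tnrc6c lies below it on length.

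Libraries of 1 group also differed along the trend on length. Relative to the mean of the 8 libraries, the longest decile of genes had a median log2 level of -0.48 in wild-type tumor 4 and -0.39 in ΔAgo2 tumor 1. In CPM these tumors were the lowest for Ago1, Tnrc6b and Tnrc6c, but not for Ago2, Ago3, Ago4 or Tnrc6a. The same decile stood at 0.54 in ΔAgo2 tumor 2 and 0.35 in ΔAgo2 tumor 4, the tumors with the highest CPM of every member but Tnrc6c. Libraries of 1 group differed along the trend on GC content too. The decile of lowest GC content had a median log2 level of 0.03, -0.77, 0.19 and -0.96 in wild-type tumors 1 to 4. In ΔAgo2 tumors 1 to 4 it was 0.01, 0.86, 0.24 and 0.61. The part of these trends in the levels and shares of the 7 genes was not tested beyond the corrections given.

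Within each tumor, the order per length was stable at the top. Ago2 was above every other member in all 8 tumors, at 1.64 to 3.05 times Tnrc6a. Tnrc6a and Ago1 exchanged places between the groups in TPM. Ago1 was higher in all 4 wild-type tumors and Tnrc6a in all 4 ΔAgo2 tumors, which is given with no test. This exchange depends on the lengths used, 12706 exonic bases for Tnrc6a and 8120 for Ago1. Their longest coding transcripts have 8183 and 7227 bases. In CPM, which has no length correction, Tnrc6a was above Ago1 in wild-type tumor 2 (61.7 against 45.3) and wild-type tumor 4 (41.1 against 31.4) as well. Ago1 was above Tnrc6c in all 8 tumors, and Tnrc6c above Tnrc6b in all 8, although by a ratio of only 1.00 in ΔAgo2 tumor 2. Tnrc6b was above Ago3 in 7 of 8. Ago3 and Ago4 were the least abundant and did not differ beyond their spread, with Ago3 higher in 5 of 8.

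The share of each Argonaute in the summed Argonaute TPM was next compared. Ago2 made up 55.0%, 67.2%, 59.4% and 66.5% in wild-type tumors 1 to 4. In ΔAgo2 tumors 1 to 4 it made up 60.2%, 68.7%, 63.0% and 66.1%. The groups overlapped, at 62.0% ± 5.88 and 64.5% ± 3.71 (SD, n = 4 each). The difference of 2.47 percentage points was within the spread between tumors (exact two-sided permutation test over 70 assignments, p = 0.486, the smallest possible being 0.0286).

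Ago1 filled most of the rest, with 30.8% ± 5.51 of Argonaute TPM in wild-type and 27.3% ± 3.86 in ΔAgo2 tumors (SD, n = 4 each). Ago2 stood at 1.45 to 2.55 times Ago1 in wild-type tumors and at 1.93 to 3.03 times in ΔAgo2 tumors. Ago3 had shares of 4.06% ± 0.60 and 4.31% ± 0.44, and Ago4 of 3.10% ± 1.17 and 3.91% ± 0.44 (SD, n = 4 each). The groups overlapped for all 3, so no Argonaute took a larger part of the family beyond the spread.

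Within the TNRC6 family, the shares of Tnrc6a and Tnrc6c kept the groups apart, and that of Tnrc6b did not. These shares were singled out after their values were seen and are given with no test. No background of such shares over other gene families was computed. Tnrc6a held 48.0%, 47.6%, 48.3% and 46.7% of TNRC6 TPM in wild-type tumors 1 to 4. In ΔAgo2 tumors 1 to 4 it held 60.4%, 60.0%, 63.6% and 61.4%. The means were 47.6% ± 0.67 and 61.4% ± 1.60 (SD, n = 4 each), a gap many times the spread within either group. ΔAgo2 tumor 1, whose levels of all 7 genes were like those of wild-type tumors or lower, stood with the other ΔAgo2 tumors here.

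Tnrc6c took the smaller part in exchange. It held 39.1%, 36.7%, 37.5% and 43.3% in wild-type tumors 1 to 4. In ΔAgo2 tumors 1 to 4 it held 27.4%, 20.02%, 23.3% and 21.4%. Its means were 39.1% ± 2.95 and 23.0% ± 3.19 (SD, n = 4 each), with no overlap. Tnrc6b held 13.2% ± 2.42 and 15.6% ± 3.63 (SD, n = 4 each), and its groups overlapped.

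**Figure D4:**
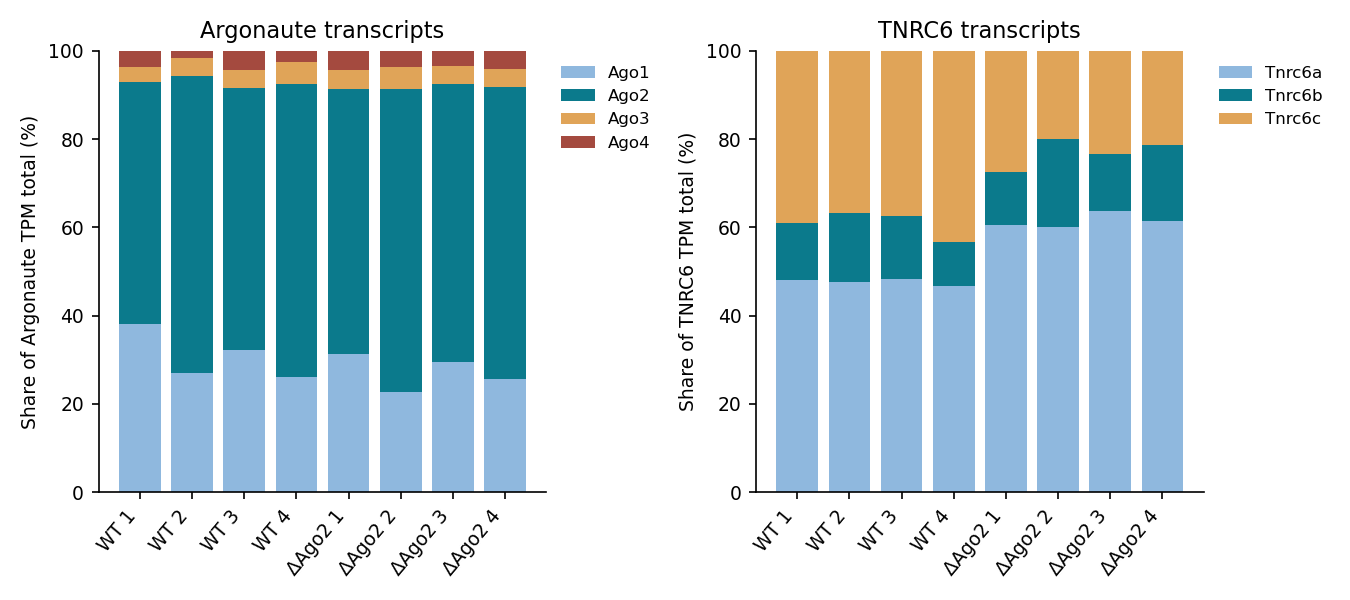
Share of each paralog in the summed TPM of its family (y axis, %) in each of the 8 tumors, Argonautes on the left and TNRC6 genes on the right. The Argonaute columns look alike in both groups, with Ago2 from 55.0% to 68.7%, while the Tnrc6a part is 46.7% to 48.3% in the wild-type columns and 60.0% to 63.6% in the ΔAgo2 columns.

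The shares of Tnrc6a and of Tnrc6c kept the groups apart under each of 5 other ways of computing them. Among these, counts per exonic length nearly repeat the deposited TPM, which rests on the same lengths, so that setting adds no check. With the GC trend of each library removed, the Tnrc6a share ran from 46.8% to 53.4% in wild-type tumors and from 57.0% to 61.9% in ΔAgo2 tumors, so the difference of the means went from 13.7 to 9.73 percentage points. With all libraries thinned to the depth of the shallowest, the ranges were 46.7% to 49.4% and 60.4% to 63.8%. Since Tnrc6a and Tnrc6c are nearly equal in length, a trend on length moved them little relative to each other, and with it removed the difference was 14.5 percentage points.

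Put as a ratio of CPM, Tnrc6a to Tnrc6c was 0.27 ± 0.12 on the log2 scale in wild-type and 1.41 ± 0.19 in ΔAgo2 tumors (SD, n = 4 each). The ratio to Tnrc6c was also higher in every ΔAgo2 tumor for Ago1, Ago2, Ago3 and Tnrc6b. Among 9246 genes with a mean of at least 10 CPM, 12.3% had such a ratio. The log2 ratio of Ago1 to Tnrc6c went from 0.04 ± 0.28 to 0.37 ± 0.04, the smallest of these shifts, and Ago4 was under that mean level and was not compared.

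The balance of the 2 families also differed. The summed Argonaute TPM was 47.3 ± 12.4 in wild-type and 85.3 ± 43.5 in ΔAgo2 tumors, and the summed TNRC6 TPM was 22.8 ± 6.34 and 49.8 ± 25.3 (SD, n = 4 each), both with overlap through ΔAgo2 tumor 1. The ratio of the sums was 2.01, 2.03, 2.15 and 2.14 in wild-type tumors 1 to 4. In ΔAgo2 tumors 1 to 4 it was 1.79, 1.74, 1.66 and 1.69. The groups did not overlap, at 2.08 ± 0.073 and 1.72 ± 0.057 (SD, n = 4 each). The TNRC6 sum was thus larger relative to the Argonaute sum in every ΔAgo2 tumor. Tnrc6a is part of that sum, so the ratio is not separate from the Tnrc6a share. Relative to Tnrc6c alone, Ago1, Ago2 and Ago3 went the other way and were higher in every ΔAgo2 tumor. With the GC trend removed the ranges of the family ratio were 2.00 to 2.18 and 1.69 to 1.81. This ratio was also singled out after its values were seen, and it has no test. How often the ratio of other gene sums keeps the groups apart was not computed.

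**Figure D5:**
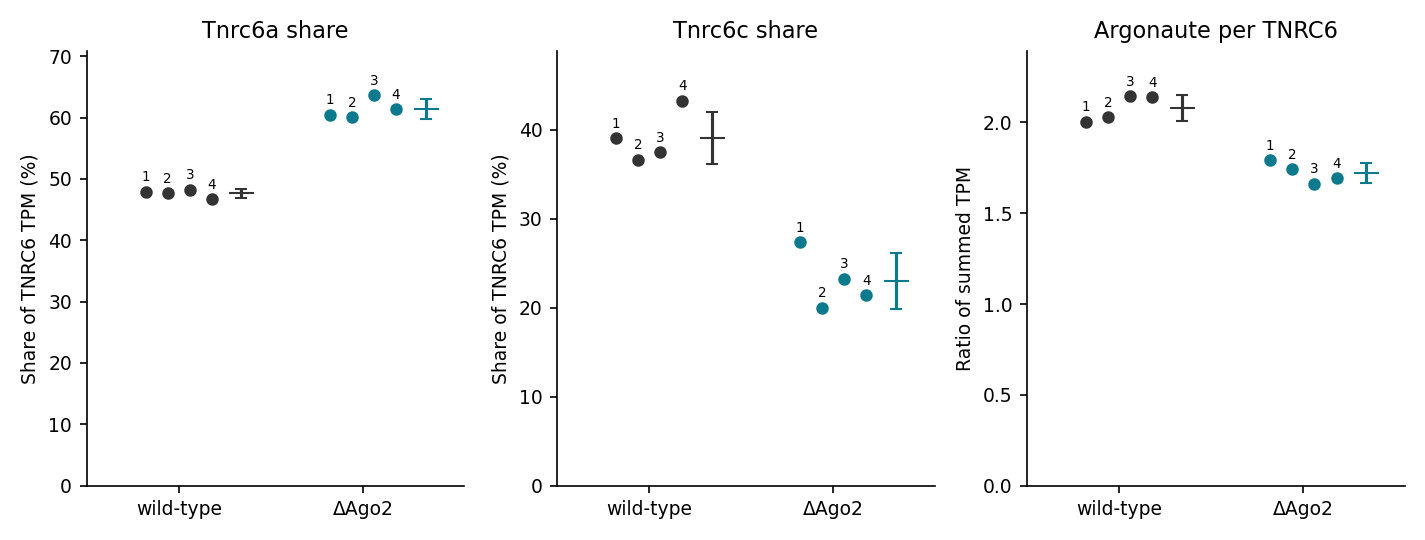
Tnrc6a share and Tnrc6c share of TNRC6 TPM (left and middle, %) and the ratio of summed Argonaute to summed TNRC6 TPM (right), each axis from 0, with the tumor number beside each point and the mean ± SD of each group. In all 3 panels the 4 ΔAgo2 tumors lie on 1 side of the 4 wild-type tumors, with ratios of 1.66 to 1.79 against 2.01 to 2.15.

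The genes that act before and after these proteins were then examined, as lists taken from general knowledge. In the list of deadenylation and decapping genes, the steps that follow TNRC6, 1 of 26 genes tested was called by edgeR. Over all genes tested the share called was 3.49%. DESeq2 called 4 of the 26 (2181 of 16061 over all genes), and limma voom called 6 (27.9% over all genes). At an unadjusted p under 0.05 there were 6 of the 26 and 4281 of 16061. The median log2 fold change was 0.18. The gene called by edgeR was Dcp2, the decapping enzyme, which rose from 24.3 ± 3.67 to 53.8 ± 14.0 CPM (SD, n = 4 each). Its log2 fold change was 1.15 ± 0.23 (SE) with an adjusted p of 0.0293. The highest value in the list was that of Cnot6, a deadenylase of the CCR4-NOT complex, at 1.16 ± 0.29 (SE, adjusted p = 0.0537). The lowest was that of Cnot3, a subunit of the same complex, at -0.76 ± 0.26 (SE, adjusted p = 0.106). Members of 1 complex thus had log2 fold changes on both sides of 0, and neither passed.

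In the list of small RNA processing genes, which holds the enzymes that make and modify microRNAs, 0 of 13 genes tested were called by edgeR (1 at an unadjusted p under 0.05, 1 called by DESeq2 and 2 by limma voom) and the median was 0.10. The highest was Tut4, an enzyme that adds uridines to microRNA precursors, at 1.06 ± 0.28 (SE, adjusted p = 0.0625), and the lowest was Tarbp2, a partner of Dicer, at -0.40 ± 0.26 (SE, adjusted p = 0.325). In the list of Argonaute loading and stability genes, 0 of 18 tested were called by edgeR (1 at an unadjusted p under 0.05, 0 by DESeq2 and 3 by limma voom) and the median was -0.07. The highest was Trim71, a ubiquitin ligase known to act on Ago2, at 0.69 ± 0.34 (SE, adjusted p = 0.211). The lowest was Zswim8, which takes part in the decay of Argonautes bound to certain target RNAs, at -0.73 ± 0.31 (SE, adjusted p = 0.170).

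Genes next to the members were read beside all 16061 genes tested, of which DESeq2 called 2181 and limma voom 4476. Of 8 genes tested within 1 Mb of Ago2, 0 were called by edgeR (3 at an unadjusted p under 0.05, 1 by DESeq2 and 4 by limma voom), and the median log2 fold change was -0.27. They were Peg13 (-0.62), Chrac1 (0.25), Ptk2 (0.34), Gm49066 (-0.17), Dennd3 (0.25), Slc45a4 (-0.37), Ptp4a3 (-0.71) and Gm7935 (-1.04). Around Ago1, Ago3 and Ago4 edgeR called 0 of 29 genes (5 at an unadjusted p under 0.05, 3 by DESeq2 and 9 by limma voom), with a median of 0.03. Around Tnrc6a it called 0 of 8 (0 at an unadjusted p under 0.05, 0 by DESeq2 and 1 by limma voom), with a median of 0.00. Around Tnrc6c it called 0 of 31 (8 at an unadjusted p under 0.05, 3 by DESeq2 and 7 by limma voom), with a median of -0.33. Around Tnrc6b it called 1 of 40 (11 at an unadjusted p under 0.05, 5 by DESeq2 and 11 by limma voom), with a median of -0.18. That gene was Mgat3, a glycosyltransferase gene named after its value was seen, with 1.40 ± 0.23 (SE, adjusted p = 0.0107).

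Chrac1 overlaps Ago2 on the opposite strand over 219 exonic bases, and the strand setting of the counts is not given in the sources used here. Reads from that stretch may be shared between them if strand was ignored. Chrac1 had a CPM of 34.4, 21.7, 33.0 and 34.5 in wild-type tumors 1 to 4 and of 57.3, 26.9, 29.6 and 33.4 in ΔAgo2 tumors 1 to 4. It was highest in ΔAgo2 tumor 1, where Ago2 was lowest. The other annotated genes that overlap members held at most 10 counts in any library. The 4 Argonautes resemble each other in coding sequence, and reads that fit more than 1 of them could be counted in ways that the sources used here do not describe.

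The gene most like Ago3 over the 8 tumors was Ago2. Likeness was the root mean square difference of log2 CPM after each gene was centred on its own mean, among 9246 genes of at least 10 CPM, for which the median difference from Ago2 was 0.62. The 5 genes nearest to Ago2 were Atrn (0.058), Birc6 (0.068), Arid4a (0.089), Syne3 (0.094) and Ago3 (0.096). Birc6 had a CPM of 57.6, 85.5, 66.2 and 55.6 in wild-type tumors 1 to 4 and of 45.8, 150.3, 85.5 and 113.4 in ΔAgo2 tumors 1 to 4. Its order of ΔAgo2 tumors was that of Ago2, which follows from its selection by likeness, and every member had that order. The other members were farther from Ago2, at ranks 647 for Tnrc6a, 675 for Ago1, 824 for Tnrc6c, 898 for Tnrc6b and 2599 for Ago4. All these points share the depth and the trends of the 8 libraries.

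Markers of other cell types were measured in the same tumors, since Argonautes are made by most cells. The counts called stand beside shares over all genes tested. EdgeR called 3.49%, DESeq2 2181 of 16061 and limma voom 27.9%, and 4281 of 16061 had an unadjusted p under 0.05. Fibroblast markers summed to 4940 to 7274 CPM in wild-type and 2323 to 4677 CPM in ΔAgo2 tumors, which did not overlap. By edgeR 1 of 10 (Fap) fell (6 at an unadjusted p under 0.05, 3 called by DESeq2 and 5 by limma voom). Most of this sum was Col3a1, at a mean of 4759 CPM in wild-type and 2931 CPM in ΔAgo2 tumors, and 3 of the 10 log2 fold changes were above 0 (Postn 0.70, Pdgfra 0.68 and Dcn 0.16, none of which passed). Skeletal muscle markers summed to 301 to 4175 CPM in wild-type and 59.1 to 249.3 CPM in ΔAgo2 tumors, with 0 of 10 called by edgeR (10 at an unadjusted p under 0.05, 4 by DESeq2 and 1 by limma voom). Skin keratinocyte markers summed to 14.1 to 604 CPM and 478 to 909 CPM, with 1 of 10 (Krt10) higher by edgeR (3 at an unadjusted p under 0.05, 2 by DESeq2 and 4 by limma voom). All 10 log2 fold changes of that list were above 0. For 4 of the 10 genes the groups did not overlap, where 16.4% of all genes tested did not. Endothelial markers summed to 149.3 to 241 CPM and 142 to 196 CPM, with 1 of 10 (Vwf) lower by edgeR (1 at an unadjusted p under 0.05, 1 by DESeq2 and 1 by limma voom).

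In the other 8 marker lists 0 genes were called by edgeR. In these lists, genes at an unadjusted p under 0.05 numbered 0 to 3, those called by DESeq2 0 to 3 and those called by limma voom 0 to 4. Pan-leukocyte markers summed to 661 to 1155 CPM in wild-type and 598 to 1203 CPM in ΔAgo2 tumors, and macrophage and monocyte markers to 2103 to 2581 CPM and 1777 to 3758 CPM. Single leukocyte genes went both ways, with 5 of 10 log2 fold changes above 0, from -0.87 (Coro1a) to 1.12 (Ptprc). T cell markers summed to 9.71 to 27.7 CPM and 10.4 to 47.0 CPM, and B cell markers to 1.86 to 4.34 CPM and 2.93 to 4.47 CPM. ΔAgo2 tumor 1, the one with low levels of the 7 genes, had the highest sums of leukocyte, macrophage, T cell and adipocyte markers of the 8 tumors and the lowest sum of fibroblast markers. Adipocyte markers summed to 19.9 to 198 CPM and 10.2 to 369 CPM, and red blood cell markers to 54.4 to 203 CPM and 39.1 to 148 CPM. The list of epithelial carcinoma markers summed to 504 to 1262 CPM in wild-type and 719 to 1253 CPM in ΔAgo2 tumors. Most of this sum was Krt8 and Krt18. Which cells of the tumors made the transcripts of this list was not tested. Of the 8 genes, 3 had an unadjusted p under 0.05, 3 were called by DESeq2 and 4 by limma voom. Their median log2 fold change was 0.80, from -1.15 (Krt7) to 1.53 (Cldn4), with 6 of 8 above 0. For 2 of the 8 the groups did not overlap, where 16.4% of all genes tested did not. Of 8 lung lineage markers, which summed to 65.7 to 101 CPM and 55.3 to 90.1 CPM, Nkx2-1 and Sftpa1 were at 0 in all 8 libraries. The part of these cell types in the levels and shares of the 7 genes was not tested.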

How the data were processed

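The members and gene lists were chosen with earlier results of these data known. The authors deposited raw counts per gene (whole numbers) for 8 libraries, and TPM values, which are counts divided by gene length and scaled to the same sum in each library. The submitters' processing notes name STAR and mm10. The annotation release, strand setting and treatment of multiply mapped reads are not given in the sources used here. Of the identifiers, 99.29% matched GENCODE M21, whose exonic lengths are those behind the TPM of the 7 genes within 0.2%. All 8 count columns and all 8 TPM columns were mapped to samples by their names.

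Counts were fitted across 16061 genes with edgeR 4.0.16 in R 4.3.3 (filterByExpr, TMM, quasi-likelihood test, no covariate), with Benjamini-Hochberg adjustment and a threshold of 0.05. SE is the log2 fold change divided by the square root of F. Log2 CPM used a prior count of 2. For each library, trends on GC content and length were taken from genes averaging 50 counts or more. The Ago2 share of Argonaute TPM was compared by an exact permutation test (scipy 1.17.1, Python 3.11.15). Alternatives used DESeq2 1.42.0 and limma 3.58.1 (voom, or log2(TPM + 1) and log2(TPM + 0.1) of genes reaching 0.5 TPM in 4 libraries). Thinning to the shallowest library was drawn 5 times, of which the first draw is the value given. The procedure was tested on simulated data. Genes named were the members, called genes and both extremes of 3 pathway lists, the 5 genes most like Ago2, and its neighbours within 1 Mb. Fap, Col3a1, Postn, Pdgfra, Dcn, Krt10, Vwf, Krt8, Krt18, Krt7, Cldn4, Coro1a, Ptprc and Mgat3 were named after their values were seen. Promoter sequences are from RefSeq (GRCm38.p6), and replicate libraries differed by more than sampling noise.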

Additional observations from a re-analysis of the deposited data

Results flagged for a closer look

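The Ago3 share of Argonaute TPM in ΔAgo2 tumor 2 was 4.97%, while the other 3 ΔAgo2 tumors lay between 4.03% and 4.15%. It stood apart from its group by a gap of 0.866 of the whole range. Of 36 groups examined for such a gap this was 1, and chance gives about 1 in 20 groups, or 1.8 here.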

How the results depend on the processing

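Members called numbered 1. The number was 0 with total counts, with the GC trend removed, with limma on log2(TPM + 1), log2(TPM + 0.1) or log2(TPM + 1) with no filter, and 5 with limma voom. It ranged from 0 to 3 over libraries left out in turn, with 3 without ΔAgo2 tumor 1 and 0 without any other. Ago2 passed with voom (0.86, adjusted p = 0.0140) and without ΔAgo2 tumor 1 (0.85, adjusted p = 0.0441), and ranged from 0.38 to 0.85 over libraries left out and from 0.18 to 0.86 over all 21 settings. Tnrc6a stayed above 0 in all 21 and passed in 7 (adjusted p from 8.7e-04 to 0.299). Tnrc6c turned to -0.36 with the length trend removed, to -0.11 without ΔAgo2 tumor 2, to -0.015 without wild-type tumor 4 and to -0.0079 without ΔAgo2 tumor 4. Over 5 draws that thinned each library to the shallowest, Tnrc6c ranged from -0.075 to 0.056, so its sign rested on the draw, and Tnrc6a passed in 4 (adjusted p from 0.0391 to 0.0536). Ago3 turned to -0.11 with the GC trend removed. The cause of these changes was not tested. The Ago2 share difference ranged from 0.125 to 4.20 percentage points over libraries left out, lowest without wild-type tumor 1 and highest without wild-type tumor 2, and never passed, which the exact test with 3 against 4 could not do (smallest p = 0.0571).

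Fits with the replicate number as a block called 0 members, also with the GC trend removed, where Tnrc6a stood at 1.13 (adjusted p = 0.143) and 0.87 (adjusted p = 0.0674), Tnrc6c at -0.0093 with the block alone, and Ago3 at -0.071 with both. The block left the Ago2 share difference at 2.47 percentage points. Same-numbered tumors did not deviate together (correlations of deviations of -0.236, 0.103, -0.045 and -0.290). Pairs with different numbers ran from -0.218 to 0.325. The labels give only the number, and whether same-numbered tumors shared a batch cannot be told from these correlations.

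The settings for the TNRC6 shares and for the ratio of the families were chosen after seeing the data. The Tnrc6a difference was 11.4 percentage points with no length correction and 9.73 with the GC trend removed, and the Tnrc6c difference was -10.8 with the GC trend removed. Over libraries left out they ranged from 13.0 to 14.2 and from -17.5 to -14.7, and the difference in the ratio from -0.383 to -0.336. Counting error limits Ago4 most, with 19 counts in wild-type tumor 4.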
